A study of Mus musculus with 6 samples.

Results

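The enzymes that burn fatty acids and ketone bodies were followed in poly(A)-selected RNA of mouse hearts, taken at an age of 4 days. The set has 34 genes out of 54532 in the table, listed by name for their place in the pathway, with earlier results of these data known. All 34 were found, each on a single gene identifier. The 3 control hearts carry the genotype Wtapflox/flox (Wtap-flox below), and the other 3 are labelled Wtap-CKO, read here as a conditional knockout of the floxed gene. WTAP belongs to the complex that writes N6-methyladenosine on messenger RNA. Replicates within a group are independent biological ones, per the submitters. Nothing in the sources used here names the Cre driver, its cell type or which exons it removes.

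In the heart, long-chain fatty acids are activated to acyl-CoA, carried into mitochondria as carnitine esters and shortened by repeated rounds of oxidation, hydration, a second oxidation and thiolysis. The acyl-CoA dehydrogenases hand their electrons to the electron transfer flavoprotein, which passes them to ubiquinone in the respiratory chain. Around birth the heart turns from glucose and lactate towards fatty acids supplied by milk, and ketone bodies are a further fuel of the suckling animal.

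The libraries held 15649028 to 18045599 counted reads or pairs. Values are FPKM, which divides a gene's count by its length and by the library's total. Wtap itself stood at 7.77, 8.74 and 10.9 FPKM in Wtap-flox and at 9.32, 7.75 and 9.46 in the libraries labelled Wtap-CKO, with overlap (log2 fold change -0.035, adjusted p = 0.893, limma). The value counts the whole gene, and without the deleted exons it does not check the labels. Wtap-CKO 3 stood apart from the other Wtap-CKO libraries on the second principal component, which held 20.4% of the variance. Summed FPKM of 10 cardiomyocyte markers ranged from 16985 to 20645 in Wtap-flox and from 18026 to 21883 in Wtap-CKO, so cardiomyocyte RNA was abundant in all 6. Actc1 and Myh6 make up most of that sum, and 1 of the 10 fell, Ryr2, the calcium release channel (39.7 ± 10.3 to 19.7 ± 5.18 FPKM, log2 fold change -0.97, adjusted p = 0.0233, limma). The 6 macrophage markers summed to at most 23.2 FPKM in Wtap-flox and to between 27.5 and 42.9 in Wtap-CKO, without overlap, and 1 of 4 tested was higher. The 6 fibroblast markers summed to between 520 and 606 FPKM against 381 to 523, and 2 of 6 fell. The part of cell composition in the results below was not tested, and in whole tissue fewer cells of a type and less RNA per cell cannot be told apart. Markers of fat tissue, itself rich in these enzymes, were near absent, with Adipoq and Elovl3 at 0 in all 6 libraries, Ucp1 at 0.0351 FPKM in 1 library and Plin1 at no more than 0.0557. Cidea, the remaining one, stood at 15.3 to 17.2 FPKM in Wtap-flox and 17.2 to 26.1 in Wtap-CKO.

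In the libraries labelled Wtap-CKO 4 genes fell, all of which take electrons off the acyl chain or pass them on. Etfa and Etfdh fell by 0.54 and 0.45 on the log2 scale, and the acyl-CoA dehydrogenases Acad9 and Acad11 fell by 0.49 and 0.65. No tested gene of fatty acid activation, carnitine transport, the later steps of a round, unsaturated chains or ketone use passed the test. In the same roles as the genes that fell, Acadl (-0.09), Acads (0.13), Acadvl, Acadm and Etfb did not pass either. The later steps of a round had a median of -0.30, and differences between steps were not tested. Of 32 members with a mean of at least 1 FPKM, 4 fell (12.5%) and 0 rose, at an adjusted p below 0.05 over all genes tested (limma, Benjamini-Hochberg). With 1 library left out the count was 1 to 3, and in 4 of those 6 fits Acad11 was the only member called. That is 3.03% to 3.12% of members beside 3.32% to 5.53% of all genes lower, so that the members' share was then no higher than the background. Across all 12568 tested genes 16.6% were called, 6.69% lower and 9.91% higher. At an unadjusted p below 0.05, 9 members were lower and 1 was higher, against 14.2% and 17.5% of all tested genes. Limma-voom also called 4 lower (12.5%) and 0 higher, beside 8.91% and 11.1% of all tested genes. The median log2 fold change was -0.20 over the 32 members and 0.00 over all tested genes. In 12 of the 32 (37.5%) every Wtap-CKO value lay below every Wtap-flox value, as in 17.3% of all tested genes, and in 1 every value lay above, as in 19.8%, or 37.1% in either direction.

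How many members were called depended on scaling. With upper-quartile scaling 7 members fell (21.9%, beside 9.51% of all tested genes). With TPM scaling 10 did (31.25% beside 12.7%), as with quantile normalization (31.25% beside 8.01%), while 0 rose in any of these. The members that were added were Hadha, Hadh and Acadvl under all of them, and Acaa2, Acadm and Etfb with TPM and quantile scaling. TPM scaling shifted the median of all genes by -0.14, and of the genes it called 33.1% were higher against 59.7% as deposited and 45.3% with upper-quartile scaling. The median of the members lay 0.20 below that of all genes as deposited, 0.22 below with TPM scaling and 0.34 below with quantile normalization. As a share of all FPKM in a library, the 34 members held 1.04%, 0.984% and 1.04% in Wtap-flox 1 to 3. In Wtap-CKO 1 to 3 they held 0.819%, 0.773% and 0.746%. Every Wtap-CKO library was below every Wtap-flox library in this share, and the measure is close to the TPM scaling. The share is weighted to the abundant members, with Acadl and Acaa2, at means of 566 and 519 FPKM over the 6 hearts, its largest parts. The summed FPKM of the members was 3292, 3282 and 3535 in Wtap-flox and 2988, 2768 and 2898 in Wtap-CKO, while that of all genes was 315632 to 339917 against 357870 to 388328. In values as deposited, a smaller numerator and a larger denominator thus both enter the share. Both sums depend on the library size used for the FPKM, which is not the counted total, while the share does not. How much each contributes therefore cannot be read from these sums.

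**Figure D1:**
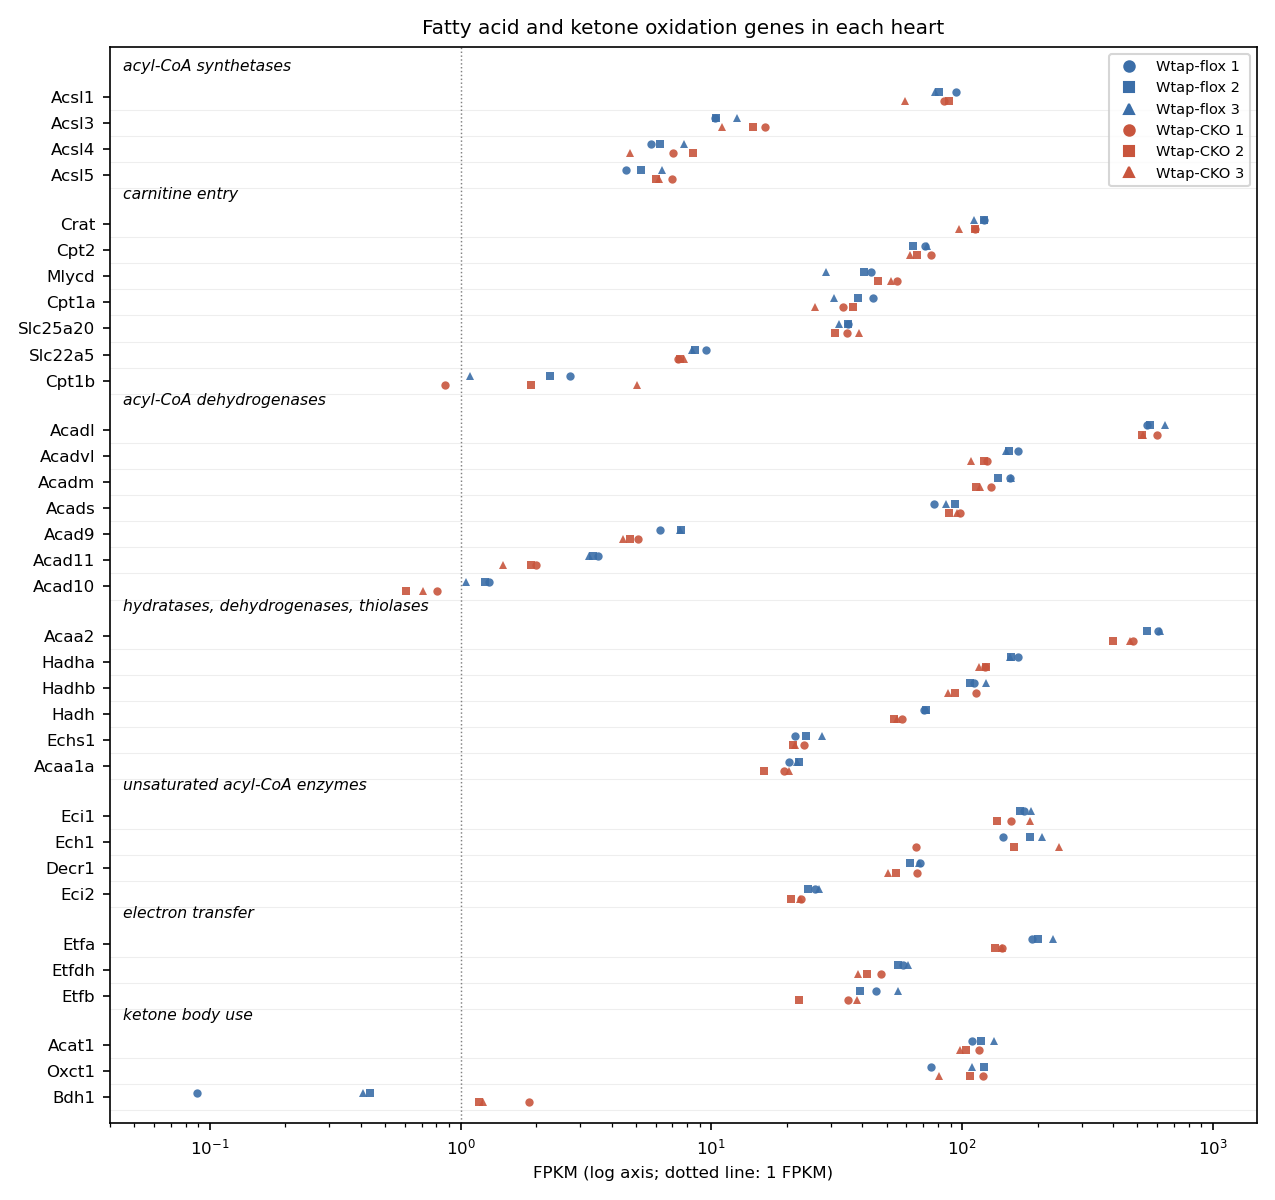
FPKM of each of the 34 members in each of the 6 hearts on a log axis, by role in the pathway, with Wtap-flox in blue, Wtap-CKO in red and a shape for each replicate. Levels run from Bdh1, below 2 FPKM in all 6 hearts, to Acadl and Acaa2, with means over the 6 hearts of 566 and 519 FPKM, and the red points of Bdh1 lie right of the blue ones.

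Long-chain acyl-CoA synthetases attach coenzyme A to a fatty acid, the step that commits it to metabolism. Of the 4 tested none rose or fell (limma), none had an unadjusted p below 0.05 and limma-voom called none. Acsl1, the main form of the heart, stood at 94.4, 80.8 and 77.6 FPKM in Wtap-flox and at 84.4, 88.7 and 59.1 in Wtap-CKO. Its groups overlapped, with the lowest value in Wtap-CKO 3, and its log2 fold change was -0.14. Acsl3, linked to lipid droplets, stood at 10.3 to 12.7 FPKM and 11.1 to 16.4 FPKM (0.30, adjusted p = 0.240). Acsl4, which prefers arachidonate, and Acsl5 had 0.01 and 0.22. The sign for Acsl4 turned under TPM, upper-quartile and quantile scaling.

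Acyl groups cross into the mitochondrion by way of carnitine, which the transporter OCTN2, encoded by Slc22a5, brings into the cell. Of the 7 genes of this step none passed (limma, 1 higher at an unadjusted p below 0.05, none by limma-voom), with a median log2 fold change of -0.03. Carnitine palmitoyltransferase 1, the step that malonyl-CoA inhibits, has a liver form, Cpt1a, and a muscle form, Cpt1b. Cpt1a stood at 44.3, 38.6 and 30.9 FPKM in Wtap-flox and at 33.5, 36.6 and 25.8 in Wtap-CKO (-0.24, adjusted p = 0.398). Cpt1b stood at 2.72, 2.28 and 1.09 FPKM in Wtap-flox and at 0.863, 1.90 and 5.05 in Wtap-CKO. The groups of both forms overlapped, and Wtap-CKO 3 had the lowest Cpt1a and the highest Cpt1b of all 6 hearts. Cpt1b made up 5.79%, 5.58% and 3.40% of the summed FPKM of both forms in Wtap-flox and 2.52%, 4.94% and 16.4% in Wtap-CKO (exact permutation test, two-sided p = 0.9, where 3 against 3 allows no p under 0.1). Cpt1b shares its whole span with a predicted gene, Gm44502, on the same strand. How reads that lie in both were counted is not known here, so the level of Cpt1b, and its share, may be too low.

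The translocase gene Slc25a20 and the inner-membrane transferase gene Cpt2 had means of 34.1 ± 1.61 and 69.1 ± 4.85 FPKM in Wtap-flox and 34.9 ± 3.77 and 67.8 ± 6.62 in Wtap-CKO (log2 fold changes 0.028 and -0.030). Their 95% intervals ran from -0.26 to 0.32 and from -0.34 to 0.28. Crat, which makes short-chain acylcarnitines, had -0.14 and Slc22a5 had -0.20. The sign for Slc25a20 turned under TPM, upper-quartile and quantile scaling. Mlycd, the enzyme that breaks down malonyl-CoA and so relieves the brake on carnitine palmitoyltransferase 1, was the member whose groups lay apart upward among those tested. It stood at 43.3, 40.7 and 28.7 FPKM in Wtap-flox and at 55.1, 46.4 and 52.0 in Wtap-CKO. Its log2 fold change of 0.45 (95% interval 0.06 to 0.85) did not pass after adjustment (adjusted p = 0.109, limma), and without Wtap-flox 3, its lowest heart, it was 0.28.

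**Figure D2:**
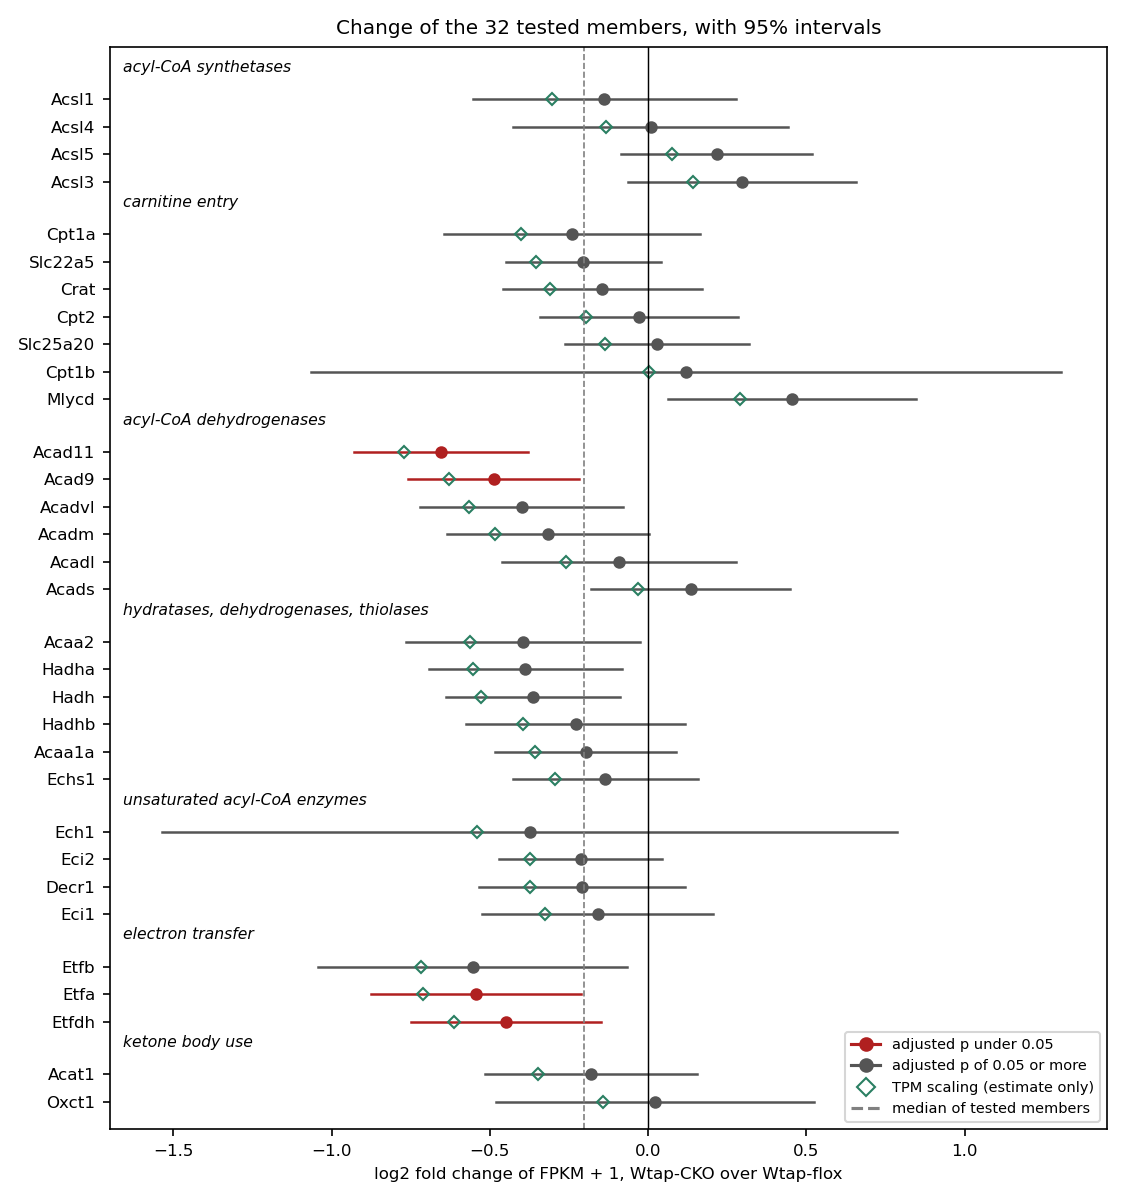
Log2 fold change of FPKM + 1 in Wtap-CKO over Wtap-flox with 95% limma intervals for the 32 tested members by role, red where the adjusted p was below 0.05, with the estimate under TPM scaling as open diamonds. The 4 red members lie at -0.45 or lower, the dashed median of the members lies at -0.20, and TPM scaling places every tested member further to the left.

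The acyl-CoA dehydrogenases open each round by putting a double bond into the chain, and each prefers a range of chain lengths. Of the 6 tested 2 fell and 0 rose (limma, 3 lower and 0 higher at an unadjusted p below 0.05, 2 lower and 0 higher by limma-voom), with a median of -0.36. Acad11 (ENSMUSG00000090150, chromosome 9, 104063377 to 104127725 on the plus strand), a form that acts on long chains, stood at 3.52, 3.36 and 3.25 FPKM in Wtap-flox. The Wtap-CKO hearts had 1.99, 1.91 and 1.47 FPKM, so that the groups lay well apart. That is a fall in the mean from 3.38 ± 0.139 to 1.79 ± 0.280 FPKM (SD over 3 hearts; log2 fold change of -0.65, 95% interval -0.93 to -0.38, adjusted p = 0.00839, limma). Acad11 was lower at an adjusted p below 0.05 in all 15 fits that tested it, those without any 1 library among them. Its locus overlaps Ackr4 on the other strand, which had 0.880 FPKM, and over 12503 bases the predicted gene Gm28305 on the same strand, listed at 0, so that reads lying in both may be missing from its level.

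Acad9 (ENSMUSG00000027710, chromosome 3, 36065979 to 36092853 on the plus strand) acts in the assembly of respiratory complex I as well as on long chains. It stood at 6.23, 7.55 and 7.49 FPKM in Wtap-flox and at 5.08, 4.75 and 4.45 in Wtap-CKO, again with no overlap. The mean fell from 7.09 ± 0.744 to 4.76 ± 0.317 FPKM (-0.49, 95% interval -0.76 to -0.22, adjusted p = 0.0253, limma). The call was lost when replicate 2 or 3 of Wtap-flox, or replicate 1 or 2 of Wtap-CKO, was left out, with 0.101 as the highest adjusted p. Acad10, another minor form, was not tested at a mean of 0.954 FPKM. It stood at 1.30, 1.25 and 1.05 FPKM in Wtap-flox and at 0.806, 0.608 and 0.710 in Wtap-CKO, without overlap, and without a filter had -0.37 (adjusted p = 0.126).

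The 4 abundant dehydrogenases did not pass. Acadvl, which acts on very long chains, stood at 167, 154 and 150 FPKM in Wtap-flox and at 126, 122 and 108 in Wtap-CKO. Its groups lay apart (-0.40, 95% interval -0.72 to -0.08, adjusted p = 0.0891), and it passed with upper-quartile, TPM or quantile scaling at an adjusted p between 0.0282 and 0.0427. Acadm, for medium chains, stood at 155, 139 and 156 FPKM against 130, 113 and 118 (-0.32, adjusted p = 0.162), also apart. Acadl, for long chains, was the most abundant dehydrogenase and had 584 ± 51.0 against 548 ± 42.8 FPKM (-0.09). Acads, for short chains, had 85.8 ± 8.07 against 94.1 ± 4.73 FPKM (0.13), and its sign turned under TPM and quantile scaling. Along the chain lengths, the very long and medium forms were therefore the ones whose groups did not overlap, and the long and short forms overlapped. The difference between these forms was not tested.

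**Figure D3:**
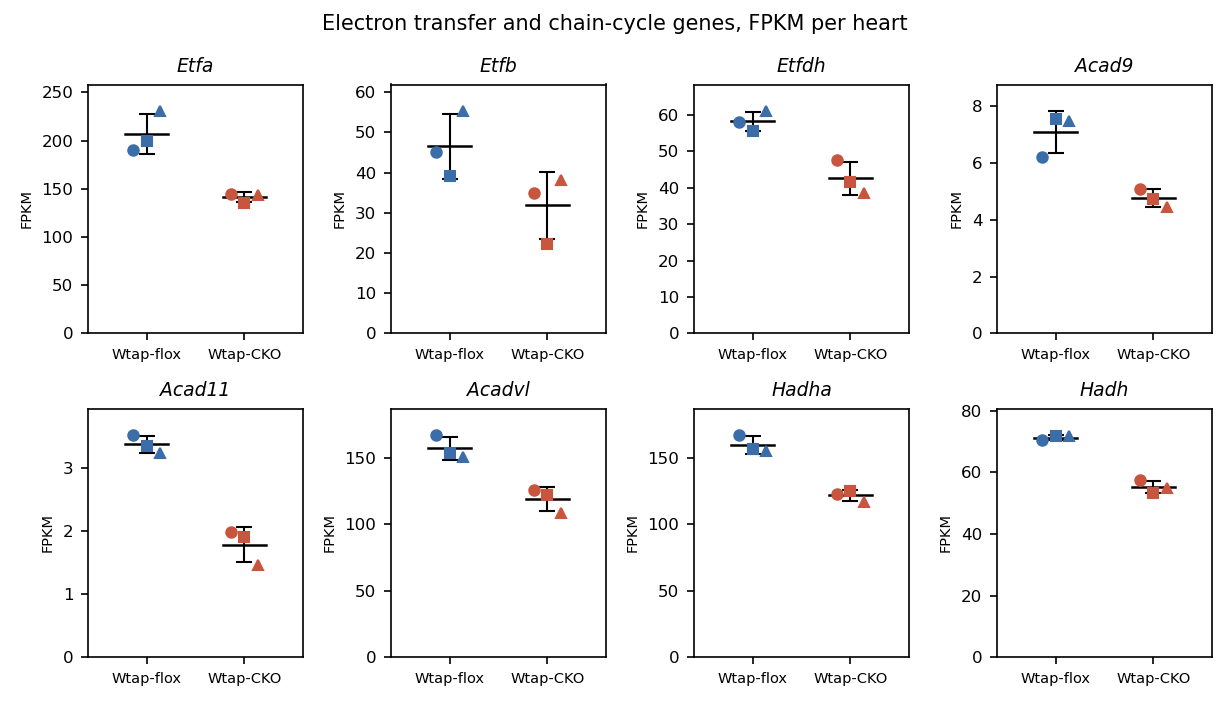
FPKM of 8 members in each heart, with points for the 3 hearts of a group, a bar at the mean and whiskers of 1 SD. In Etfa, Etfb, Etfdh, Acad9, Acad11, Acadvl, Hadha and Hadh every Wtap-CKO heart lies below every Wtap-flox heart, with the closest approach in Etfb at 38.2 against 39.1 FPKM.

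The remaining steps of a round are hydration, the second oxidation and thiolysis. Of 6 genes none passed (limma), while 3 were lower at an unadjusted p below 0.05, none by limma-voom after adjustment, and the median was -0.30. Hadha and Hadhb encode the subunits of the mitochondrial trifunctional protein and lie head to head on chromosome 5 with 85 bases between them. Hadha stood at 167, 157 and 155 FPKM in Wtap-flox and at 123, 125 and 117 in Wtap-CKO (-0.39, 95% interval -0.69 to -0.08, adjusted p = 0.0825). Hadhb stood at 111, 108 and 125 FPKM and at 113, 93.5 and 88.0 (-0.23, adjusted p = 0.345). The groups lay apart for Hadha and overlapped for Hadhb through Wtap-CKO 1. The ratio of Hadha to Hadhb averaged 1.40 ± 0.137 against 1.25 ± 0.143 (SD; two-sided p = 0.3 by exact permutation), a difference not detectable with 3 hearts a group.

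Hadh, the dehydrogenase for medium and short hydroxyacyl-CoA, varied little within each group. It stood at 70.4, 71.7 and 71.6 FPKM in Wtap-flox and at 57.4, 53.3 and 54.9 in Wtap-CKO. The change of -0.36 (95% interval -0.64 to -0.09) had an adjusted p of 0.0747 and passed with upper-quartile, TPM or quantile scaling, at 0.0117 to 0.0290. Acaa2, the mitochondrial thiolase, stood at 605, 547 and 616 FPKM against 481, 399 and 467 (-0.39, adjusted p = 0.135), without overlap. Echs1, the short-chain hydratase, had -0.13, and Acaa1a, the thiolase of peroxisomes, had -0.20, both with overlapping groups. Acaa1b, a close copy of Acaa1a, had little signal, at 0.0995 and 0.215 FPKM on average in Wtap-flox and Wtap-CKO.

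Unsaturated chains need extra enzymes before their oxidation can go on. Of the 4 tested none passed (limma, none at an unadjusted p below 0.05, none by limma-voom), with a median of -0.21. Eci2, an isomerase, had groups that lay apart, at 24.4 to 26.8 and 20.7 to 22.9 FPKM (-0.21, adjusted p = 0.239). Eci1 and the reductase gene Decr1 had -0.16 and -0.21 with overlap. Ech1, a dienoyl-CoA isomerase, stood at 146, 186 and 207 FPKM in Wtap-flox and at 65.4, 162 and 242 in Wtap-CKO. The Wtap-CKO hearts thus held both the lowest and the highest of the 6 values. These rest on 2413, 5701 and 9764 reads, and the 95% interval of its change ran from -1.53 to 0.79.

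The electron transfer flavoprotein, made of the products of Etfa and Etfb, collects electrons from the acyl-CoA dehydrogenases, and the enzyme encoded by Etfdh delivers them to ubiquinone. Of the 3 genes 2 fell and 0 rose (limma, 3 lower and 0 higher at an unadjusted p below 0.05, 2 lower and 0 higher by limma-voom). Their median of -0.54 was the lowest among the 7 roles, and in all 3 the groups lay apart. Etfa (ENSMUSG00000032314, chromosome 9, 55454508 to 55512243 on the minus strand) stood at 190 FPKM in Wtap-flox 1, the lowest of that group, and at up to 231 in Wtap-flox 3, against 145, 135 and 144 in Wtap-CKO. The groups lay apart, and the mean fell from 207 ± 21.1 to 141 ± 5.17 FPKM (SD over 3 hearts; log2 fold change of -0.54, 95% interval -0.88 to -0.21, adjusted p = 0.0361, limma). Leaving out Wtap-CKO 3 kept the call, and leaving out any other library ended it (highest adjusted p = 0.133).

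Etfdh (ENSMUSG00000027809, chromosome 3, 79603788 to 79629500 on the minus strand) stood at 58.0, 55.7 and 61.1 FPKM in Wtap-flox and at 47.6, 41.6 and 38.5 in Wtap-CKO. Its mean fell from 58.3 ± 2.67 to 42.6 ± 4.60 FPKM (-0.45, 95% interval -0.75 to -0.15, adjusted p = 0.04996, limma). It lay at the threshold, and leaving out any of the 6 libraries ended the call (highest adjusted p = 0.142). Its locus shares 422 bases with 4930579G24Rik on the other strand, which had 6.37 FPKM. Etfb stood at 45.2, 39.1 and 55.3 FPKM and at 35.0, 22.4 and 38.2 (-0.55, 95% interval -1.04 to -0.07, adjusted p = 0.115). Wtap-CKO 2 was its lowest heart, and without it the change was -0.33. Etfb shares 13673 bases with the predicted gene Gm45233 on the same strand, so that its level carries the same doubt as that of Cpt1b. The ratio of Etfa to Etfb averaged 4.50 ± 0.536 against 4.65 ± 1.23 (two-sided p = 1 by exact permutation).

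The 250 bases before the start sites of the members that fell are shown, because they passed the test in 1 direction. RefSeq windows on GRCm38.p6 were found for 28 of the 34 members and not for Cpt1b, Crat, Acad9, Acaa2, Decr1 or Acat1. Each is written 5′ to 3′ on the strand of the gene, and capitals mark a match to the palindromic element of the factor NRF1. Start sites are those of RefSeq, which lie 347 bases inside the deposited gene span for Acad11, 733 bases inside for Etfdh and at its end for Etfa, so the windows of Acad11 and Etfdh fall within that span. The windows are Acad11 at chr9:104063474-104063723 on the plus strand, Etfa at chr9:55512244-55512493 on the minus strand and Etfdh at chr3:79628768-79629017 on the minus strand.
Acad11: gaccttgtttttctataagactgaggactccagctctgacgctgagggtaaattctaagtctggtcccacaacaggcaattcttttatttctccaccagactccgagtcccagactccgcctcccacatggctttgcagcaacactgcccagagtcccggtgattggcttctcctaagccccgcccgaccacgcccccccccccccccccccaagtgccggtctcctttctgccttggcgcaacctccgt
Etfa: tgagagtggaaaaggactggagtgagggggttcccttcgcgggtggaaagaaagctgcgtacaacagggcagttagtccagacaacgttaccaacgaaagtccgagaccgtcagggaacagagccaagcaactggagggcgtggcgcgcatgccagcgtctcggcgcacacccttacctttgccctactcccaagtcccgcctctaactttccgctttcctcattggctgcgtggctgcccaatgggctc
Etfdh: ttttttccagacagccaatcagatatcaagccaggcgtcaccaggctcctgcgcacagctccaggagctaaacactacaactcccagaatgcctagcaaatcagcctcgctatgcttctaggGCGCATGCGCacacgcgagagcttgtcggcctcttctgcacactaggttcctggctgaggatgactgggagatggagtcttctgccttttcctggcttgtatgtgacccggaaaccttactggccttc

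In windows of 300 bases, 250 before and 50 after the start, both strands were searched for 4 motifs. A single window was used for each member, the one nearest the start of the deposited gene, while all windows of all genes were counted beside them. For Eci2, Acaa1a and Acsl5 the RefSeq start lay 32952, 1618 and 1431 bases from the deposited start, so their windows may miss the promoter in use. The NRF1 element, searched with any base at its sixth place, was found at position -128 of Etfdh from the RefSeq start and in Etfb, Slc22a5 and Acad10 as well, which is 4 of 28 members (14.3%) against 4.6% of 32851 windows of all genes. The letters AGGTCA, the half-site of PPAR, ERR and other nuclear receptors, were found in Cpt1a, Acadvl, Acadm and Echs1, which is 14.3% of members against 16.3% of all windows. The ERR element TCAAGGTCA and the direct repeat 1, which is AGGTCA repeated after any 1 base, both contain AGGTCA and were found in 0 of 28 members and in 0.423% and 0.0396% of all windows. The windows of Acad11 and Etfa held none of the 4. A match describes letters only.

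Ketone bodies are used by 3 enzymes in turn, encoded by Bdh1, Oxct1 and Acat1. The 2 that could be tested did not pass (limma, none at an unadjusted p below 0.05, none by limma-voom). Oxct1, the step specific to ketone use outside the liver, stood at 75.2, 122 and 109 FPKM in Wtap-flox and at 121, 108 and 80.6 in Wtap-CKO. The groups overlapped fully (0.02, 95% interval -0.48 to 0.52), and the sign turned under upper-quartile, TPM and quantile scaling. Acat1, the thiolase that ends the path, had 121 ± 12.1 against 106 ± 9.23 FPKM (-0.18).

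Bdh1 (ENSMUSG00000046598, chromosome 16, 31422280 to 31458901 on the plus strand), the enzyme that oxidises beta-hydroxybutyrate, was too low in Wtap-flox to be tested with the others. It stood at 0.0885, 0.437 and 0.406 FPKM in Wtap-flox, which is 6, 27 and 28 reads. The Wtap-CKO hearts had 1.88, 1.18 and 1.23 FPKM, which is 118, 71 and 84 reads. Every Wtap-CKO heart was above every Wtap-flox heart, and the means of 0.311 ± 0.193 and 1.43 ± 0.391 FPKM (SD, n = 3) differ 4.60-fold. The mean of 0.870 FPKM over the 6 hearts was below the level needed for the main test. In the fit without a filter, which called 2.66% of 27201 genes higher, Bdh1 rose by 0.89 on the log2(FPKM + 1) scale (95% interval 0.49 to 1.29, adjusted p = 0.0377, limma). That scale understates the change of a gene at this level. Oxct1 exceeded Bdh1 by 850, 279 and 269 times in Wtap-flox and by 64.3, 91.1 and 65.8 times in Wtap-CKO. The groups lay apart, and an exact two-sided permutation test gave p = 0.1, the smallest that 3 against 3 allows (0.4 adjusted over the 4 ratios computed).

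**Figure D4:**
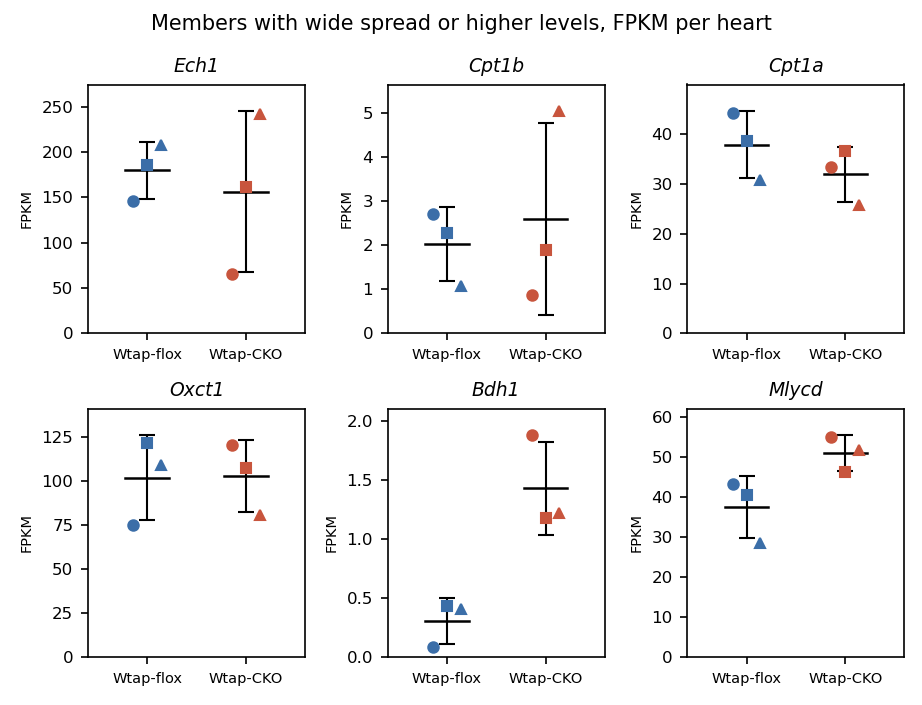
FPKM of 6 members in each heart, with points for the 3 hearts of a group, a bar at the mean and whiskers of 1 SD. Bdh1 and Mlycd are higher in every Wtap-CKO heart, Cpt1a, Cpt1b and Oxct1 overlap, and Ech1 spans 65.4 to 242 FPKM within Wtap-CKO.

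Genes around the core pathway were listed by function, and of 73 tested 7 rose (9.59%) and 3 fell (4.11%), with a median of -0.12, close to or below the 9.91% and 6.69% of all tested genes. In 20 of the 73 every Wtap-CKO value lay below every Wtap-flox value, and in 13 above, beside 17.3% and 19.8% of all tested genes. In sign, 45 were negative and 28 positive, so a downward lean was not particular to the members. Among genes that handle acyl-CoA outside the cycle, 2 of 11 rose and 0 fell (4 higher and 3 lower at an unadjusted p below 0.05, 3 and 1 by limma-voom). Acot1, a thioesterase that releases fatty acid from acyl-CoA, stood at 26.6, 24.6 and 20.6 FPKM in Wtap-flox and at 69.9, 56.1 and 59.1 in Wtap-CKO (1.33 ± 0.147, SE, adjusted p = 0.00111, limma). Acot2 rose by 0.70 (adjusted p = 0.0163) but missed the threshold with TPM and quantile scaling, at 0.0525 and 0.103, and when replicate 2 or 3 of Wtap-flox or replicate 1 of Wtap-CKO was left out, at up to 0.0683. Acot1 and Acot2 are close copies side by side, so their reads may be split uncertainly. Crot, which makes medium-chain acylcarnitines in peroxisomes, had -0.44 (adjusted p = 0.0780). Of 10 peroxisomal genes none passed (limma, 0 higher and 1 lower at an unadjusted p below 0.05, none by limma-voom), Hsd17b4 having -0.34 (adjusted p = 0.125).

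Malonyl-CoA is made under the control of the AMP-activated kinase, and of 8 such genes 1 rose and 1 fell. Both encode the regulatory beta subunit. Prkab2 rose from 7.78 ± 0.915 to 13.6 ± 1.36 FPKM (SD, n = 3; 0.73, adjusted p = 0.00706, limma), while Prkab1 fell from 15.9 ± 0.815 to 11.2 ± 0.637 FPKM (-0.47, adjusted p = 0.0213). Leaving out any library but Wtap-CKO 3 ended the call for Prkab1 (up to 0.0783). Of 3 tested genes of carnitine supply, Aldh9a1 rose (0.48, adjusted p = 0.0314) and Tmlhe had -0.31. Slc22a4 also had an adjusted p below 0.05 (0.54, 0.0381), but averaging 0.694 FPKM in Wtap-flox against 1.47 it was tested only through the group where it is high, and without a filter its adjusted p was 0.0771. Aldh9a1 missed the threshold with upper-quartile, TPM or quantile scaling, at 0.0649 to 0.123, and Slc22a4 with upper-quartile or TPM scaling, at 0.0526 and 0.0692. With 1 library left out, Aldh9a1 kept its call without Wtap-flox 1 and lost it otherwise (up to 0.109). Slc22a4 kept its call without Wtap-CKO 3, was below the level for testing without Wtap-CKO 2 and lost it otherwise (up to 0.117).

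Slc16a7, a carrier of ketone bodies and other monocarboxylates, had 1.56, 1.47 and 1.32 FPKM in the Wtap-flox hearts and 0.785, 1.01 and 0.656 in those of Wtap-CKO (-0.43, adjusted p = 0.0609, limma), and was tested only through the group where it is high. Slc16a1, a far more abundant carrier of this kind, averaged 71.7 FPKM over the 6 hearts, with overlapping groups (0.11, adjusted p = 0.799). Of 14 genes for branched and odd chains 2 fell and 0 rose (5 lower and 0 higher at an unadjusted p below 0.05, 2 and 0 by limma-voom). Ivd, an acyl-CoA dehydrogenase of leucine breakdown that also feeds the electron transfer flavoprotein, fell from a mean of 21.4 ± 1.14 FPKM to values of 13.2, 15.6 and 14.8 (-0.53, adjusted p = 0.0162). Mccc2, which encodes 1 subunit of the next enzyme of that path, fell by 0.57 (adjusted p = 0.0161). Mccc1, for the other subunit, had -0.15 with groups that lay apart (adjusted p = 0.380), and Mcee had 0.41. Leaving out Wtap-flox 2 or Wtap-flox 3 ended both calls, and leaving out Wtap-CKO 1 ended that of Ivd (up to 0.0724).

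Among 10 genes of flavin supply and of the assembly complex that holds ACAD9, 1 rose and 0 fell (2 higher and 0 lower at an unadjusted p below 0.05, 1 and 0 by limma-voom). Ndufaf1, a partner of ACAD9 in the assembly of complex I, rose from 22.5 ± 3.86 to 39.6 ± 6.28 FPKM (0.79, adjusted p = 0.0159, limma), against the fall of Acad9. It missed the threshold without Wtap-flox 1 or Wtap-CKO 1, at up to 0.0581. Rfk, which makes flavin mononucleotide, had -0.19. Of 12 transcriptional regulators of oxidation genes none passed (limma), 2 were higher and 1 lower at an unadjusted p below 0.05, and limma-voom called 1 higher. Klf15 had 0.61 (adjusted p = 0.0547). In sign, 5 were positive and 7 negative, with a median of -0.029. The following were named after their values were seen. Esrra, a receptor that drives oxidation genes, had -0.35 with groups that lay apart (adjusted p = 0.122, limma). Ppara and Ppargc1b had -0.67 and -0.73 with overlap (adjusted p = 0.178 and 0.243). On the positive side, Pparg had 0.40 with groups that lay apart (adjusted p = 0.0920), and Esrrb had 0.43 with overlap (adjusted p = 0.209).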

How the data were processed

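Polyadenylated RNA of 6 hearts was read as pairs of 150 bases. Per the submitters' processing notes, HISAT2 2.0.5, featureCounts 1.5.0-p3 and DESeq2 1.20.0 were used, with GRCm39 named as build. The authors deposited FPKM per gene, with gene length in bases as another column. All 34 members lay within 1000 bases of their RefSeq place in GRCm38.p6, against 1 in GRCm39, so coordinates are GRCm38. FPKM times length was a whole multiple of 1 step per library for 100% of values (tolerance 0.01), which gave read counts. The strand setting, and whether a unit is a read or a pair, are not stated in the sources used.

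Genes averaging 1 FPKM or more over the 6 libraries were fitted with limma 3.58.1 (R 4.3.3) on log2(FPKM + 1), with trend and robust moderation, and adjusted over all genes tested. Ratios used exact permutation tests. Members, lists and tests were chosen with earlier results of these data known. All members were described, and from each related list up to 4 genes that passed and the first in the opposite direction, or the one with the smallest adjusted p where none passed. Not all of these are printed. A result among the related genes is not reported here. Data of 12568 genes were simulated 20 times, with 200 genes changed in each and 1 common dispersion of 0.03. Of genes changed 2-fold 78.7% were recovered, and of those changed 4-fold 98.5%. Of the calls 8.93% were false, above the nominal level. In the hearts 16.6% of genes were called, and changes below 2-fold, such as those of the members called, were not simulated. These shares therefore need not hold for the hearts or the members. Figures were made with matplotlib 3.10.9.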

Additional observations from a re-analysis of the deposited data

How the results depend on the processing

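Of the 4 members that fell, Acad11 passed in every fit that tested it. Acad9, Etfa and Etfdh missed the threshold without a filter, where more genes are tested, and with the replicate number as a block. Without a filter 1 member fell and 1 rose (723 genes higher and 483 lower in all), and with a floor of 5 FPKM on the mean 471 genes were lower. TPM scaling gave 10 members lower (793 genes higher and 1601 lower), upper-quartile scaling 7 (988 and 1195) and quantile normalization 10 (1122 and 1006). The replicate block gave 1 member lower (3.12%, beside 4.97% of all tested genes). Same-numbered hearts did not deviate together (r of -0.22, -0.08 and -0.08 over tested genes, after centring within groups). With 3 hearts a group this cannot settle whether the numbers pair the hearts. With 1 library left out, 1 to 3 members fell and 0 to 1 rose, and 715 to 1187 genes were higher and 417 to 829 lower. Those fits have fewer samples.

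Members whose sign turned had not passed. With TPM, upper-quartile and quantile scaling in turn, Acsl4 had -0.13, -0.068 and -0.016, Slc25a20 had -0.14, -0.059 and -0.11, and Oxct1 had -0.14, -0.066 and -0.17. Acads had -0.031 with TPM and -0.10 with quantile scaling, and Acsl4 had -0.016 by limma-voom. With 1 library left out, Acsl1 ranged from -0.25 to 0.043, Acsl4 from -0.15 to 0.21, Cpt1b from -0.34 to 0.51, Slc25a20 from -0.047 to 0.10, Cpt2 from -0.10 to 0.031, Ech1 from -0.78 to 0.15, Oxct1 from -0.18 to 0.19 and Wtap from -0.13 to 0.086. The difference in the Cpt1b share ranged from -1.20 to 5.72 percentage points, and that in the ratio of Etfa to Etfb from -0.55 to 0.59. The causes were not tested.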

Other observations

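Within the Wtap-CKO group the highest value of Ech1 was 3.71 times its lowest, where the median over 427 tested genes averaging 100 FPKM or more was 1.35, and it ranked 21 among them. In Wtap-flox its range was 1.42-fold against a median of 1.24. Cpt1b, at a lower level, spanned 5.85-fold within Wtap-CKO and 2.50-fold within Wtap-flox. Both genes had their lowest Wtap-CKO value in Wtap-CKO 1 and their highest in Wtap-CKO 3. They were picked after their values were seen.

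Wtap-CKO 1 held the highest of the 3 values for 22 of the 34 members, Wtap-CKO 2 for 5 and Wtap-CKO 3 for 7. Over all tested genes these shares were 29.4%, 33.6% and 37.0%. The members' median deviation from their mean over the 6 hearts on the log2(FPKM + 1) scale was -0.04, -0.13 and -0.17 in Wtap-CKO 1 to 3, and 0.10, 0.06 and 0.15 in Wtap-flox 1 to 3.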
